A study of Rattus norvegicus with 12 samples.

Results

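A group of 53 genes had a higher RNA level in the injured spinal cord of athymic nude (AN) rats than of Sprague-Dawley (SD) rats at both times studied after contusion. The genes were selected from the expression values themselves. A gene was taken when AN rats had an FPKM of at least 2 and at least 2 times the FPKM of SD rats at 1 week (acute phase) and again at 8 weeks (chronic phase). FPKM is the number of sequenced fragments per kilobase of transcript, scaled for the depth of sequencing, here under quartile normalization. Levels can thus be compared between genes of different length. The tables list 17423 genes, and 11687 of them carry the status OK in both phases, which means that the authors' comparison could be run. Of these, 58 passed the thresholds, 5 were set aside beforehand, and 53 remained. Fold change (FC) is the AN FPKM divided by the SD FPKM throughout.

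The study compared rats with and without a normal T cell response after moderate contusion of the spinal cord. The 12 rats were adult females of 16 to 18 weeks at injury, with 3 rats in each of 4 groups: acute SD, acute AN, chronic SD and chronic AN. Chronic rats were thus older than acute rats when sampled, and age and time after injury cannot be told apart. The SD rats were of the outbred stock Hsd:SD, and the AN rats were Hsd:RH-rnu/rnu, which are homozygous for the nude mutation. All 4 groups received an impact of 200 kdyn and were perfused with saline. Polyadenylated RNA came from a segment of 1 mm through the injury site, and no uninjured group was compared here. AN rats lack a thymus but keep other lymphocytes, among them natural killer cells and B cells. The strains also differ in genetic background, and the lack of a thymus and the background cannot be told apart in this design. In a piece of tissue, more cells of one type and more RNA per cell cannot be told apart either. The tables hold 1 FPKM for each group of 3 rats, so there is no value for a single rat, no SD and no test in the comparisons that follow, and the values are a description. They give no read counts, so the number of reads behind a gene was not assessed.

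Contusion of the cord brings blood monocytes and resident microglia into the lesion, where they take up myelin and cell debris, and fibroblasts lay down a matrix that becomes the scar. Innate cells carry paired receptors, families of similar surface proteins in which some members inhibit and others activate the cell. In rats these include the Ly49 lectin-like receptors of natural killer and myeloid cells, the paired Ig-like receptors (PIR) and the paired immunoglobulin-like type 2 receptors (PILR). Many Ly49 and PIR receptors bind major histocompatibility complex (MHC) class I molecules, which are called RT1 in the rat. The genes of these families lie in arrays of similar copies that differ in number and sequence between rat strains.

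Of the 11687 genes, 176 (1.51%) passed the thresholds at 1 week and 203 (1.74%) at 8 weeks. Both were passed by 58 genes (0.496%), which is 33% of the acute and 28.6% of the chronic list. The mirrored rule, at least 2-fold higher in SD rats in both phases, was met by 423 genes (3.62%). These shares set the frame for the 53 genes and, since the same values chose them, nothing is read from them. Genes that passed the thresholds in one phase alone were left after removal of the 53 genes and of those set aside beforehand. Of the 118 such acute genes 97 (82.2%) had an FC above 1 at 8 weeks, beside 50.5% of all genes with status OK, and of the 145 such chronic genes 98 (67.6%) had an FC above 1 at 1 week, beside 48.4%.

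Among the 53 genes, FC ran from 2.01 to 6.26 at 1 week with a median of 2.64 (log2FC 1.40). At 8 weeks it ran from 2.00 to 28.4 with a median of 2.77 (log2FC 1.47). The median log2FC over all 11687 genes was -0.01 and 0.00. The larger FC was the chronic one for 35 genes and the acute one for 18. For 9 genes the chronic FC was at least 2 times the acute FC, and the reverse held for 1 gene, Rnase10. The smaller FC of a gene's pair was at least 3 for 13 genes, at least 4 for 5 genes, and at least 5 for Cd5l alone, while 25 genes stayed below 2.5.

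**Figure D1:**
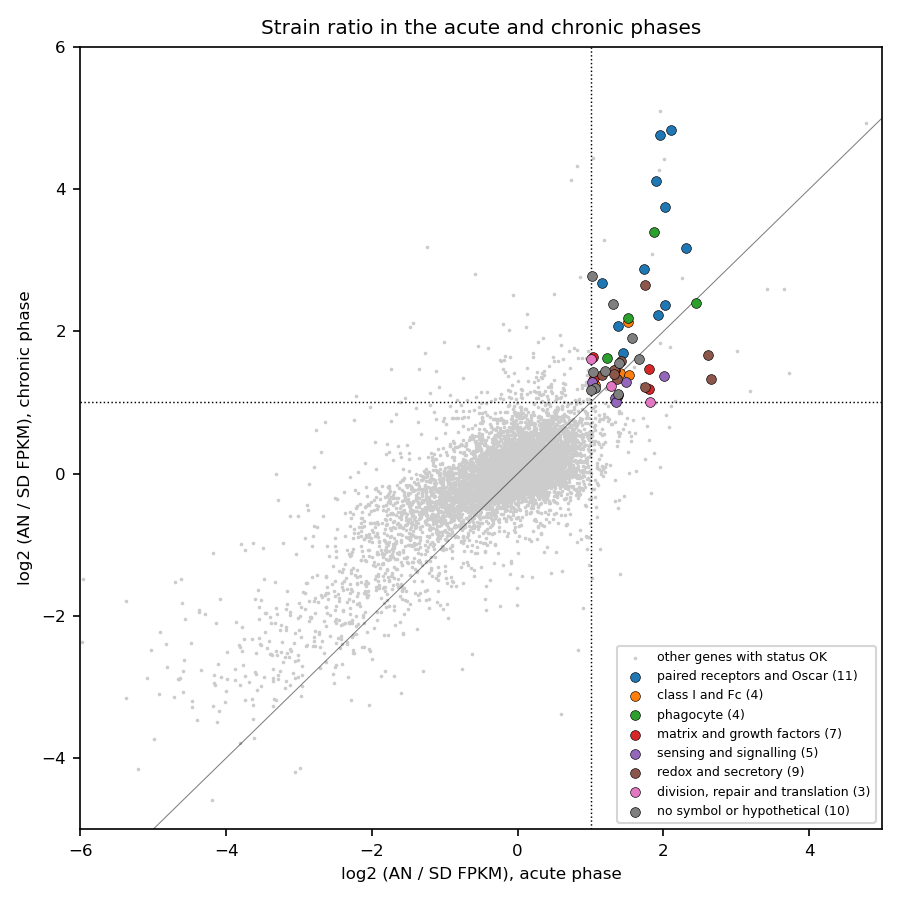
Log2FC (AN over SD FPKM) at 1 week (horizontal axis) and at 8 weeks (vertical axis) for genes with status OK, without genes listed at 0 in a group or beyond the axes. Colored points are the 53 genes by role, grey points are other genes, dotted lines mark 2-fold and the solid line marks equal values. The paired receptors and Oscar (blue) lie above the line of equal values, with chronic log2FC of up to 4.83.

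The genes spanned a wide range of levels. The median FPKM at 1 week was 7.86 for SD and 21.8 for AN rats, and at 8 weeks 3.36 and 17.2, beside 15.7, 15.2, 15.8 and 15.9 over all genes with status OK. Summed over the 53 genes the FPKM was 1836 for SD and 5036 for AN rats at 1 week, then 1180 and 3518 at 8 weeks, which is between 0.192% and 0.771% of all FPKM listed in a group. In AN rats 10 genes exceeded 100 FPKM at 1 week and 7 at 8 weeks. Fcrls, Pf4 and Fcgrt led at 1 week, and Gpx3, Pf4 and Fcrls at 8 weeks.

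**Figure D2:**
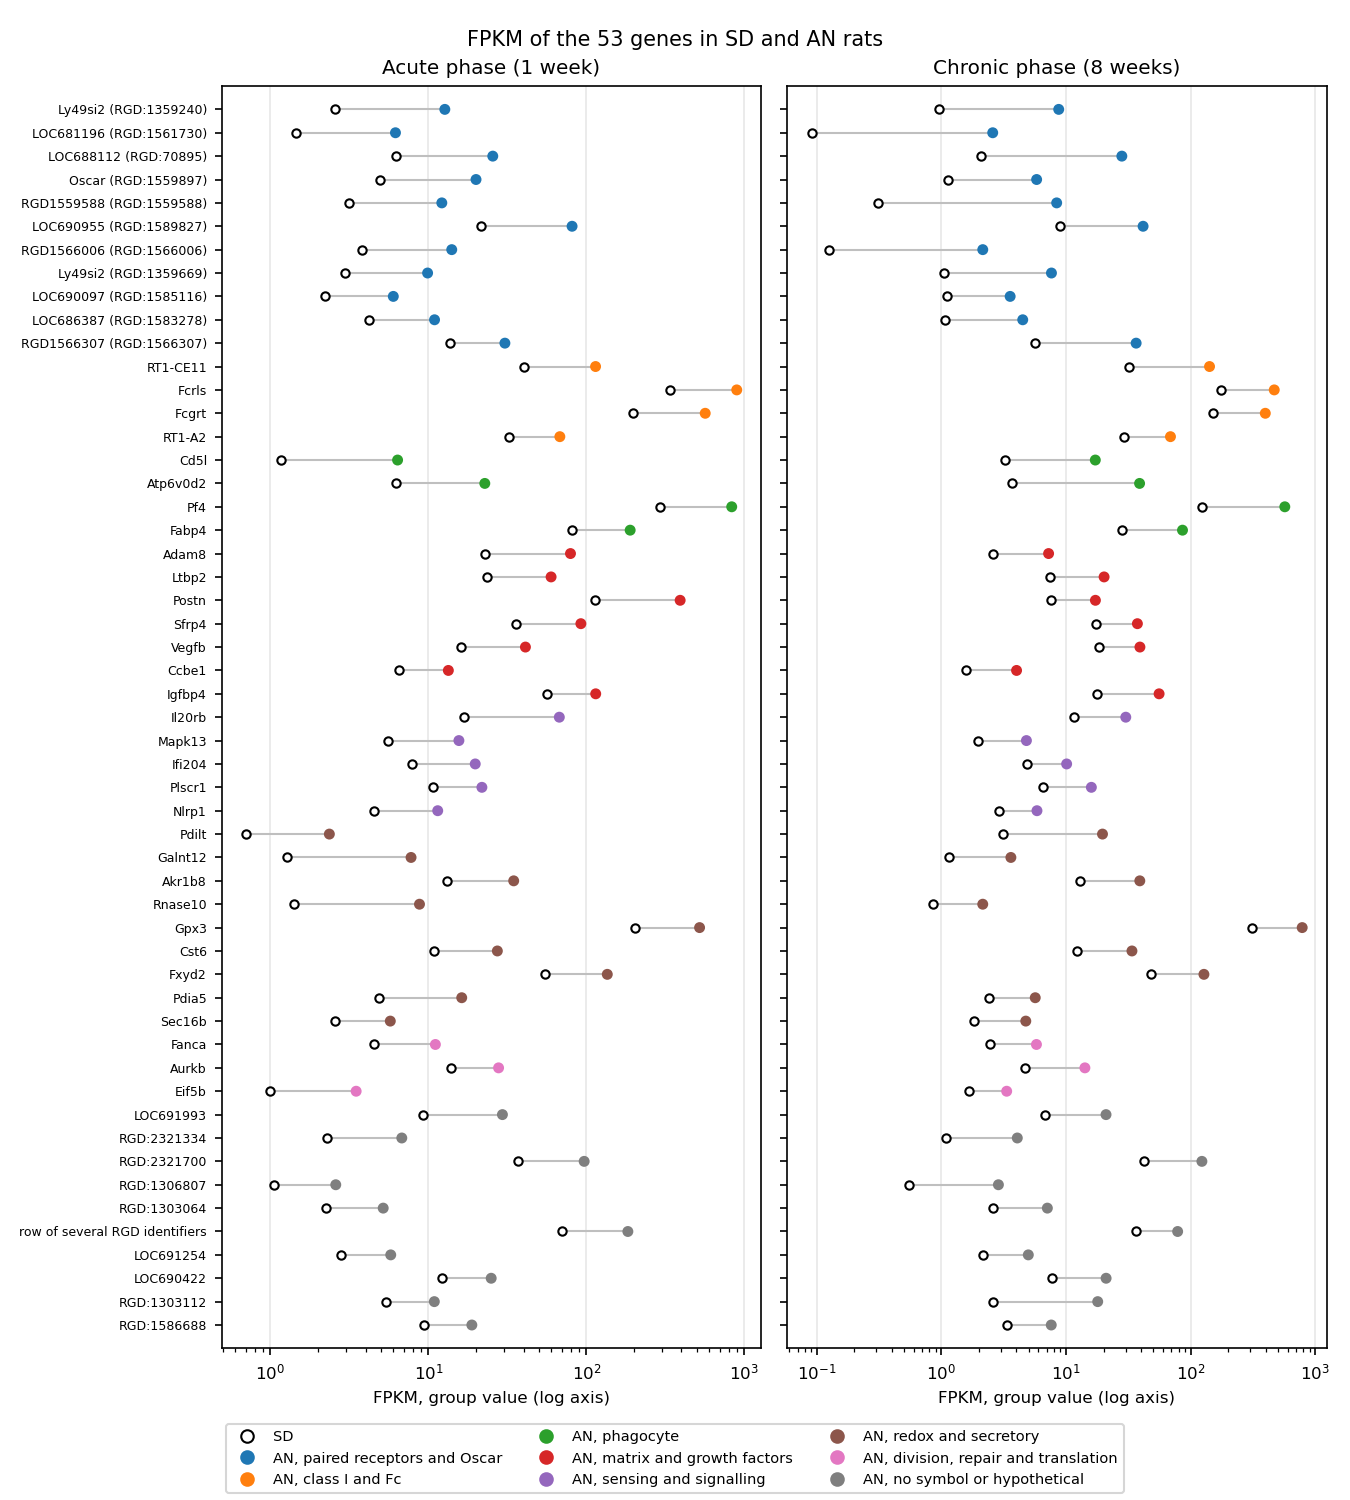
FPKM of the 53 genes in SD rats (open circles) and AN rats (filled circles, colored by role) at 1 week (left) and at 8 weeks (right), on log axes, 1 authors' value for each group of 3 rats. Every AN value lies to the right of its SD value because the genes were selected so. SD values run from 0.701 to 340 FPKM at 1 week and from 0.0906 to 312 at 8 weeks.

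Paired receptors numbered 10, and they are described together with Oscar, a receptor whose gene lies beside the PIR genes. All 11 had a larger FC at 8 weeks than at 1 week, with medians of 3.80 and 7.34. Their summed FPKM was 66.5 in acute SD and 229 in acute AN rats, and 22.4 and 149 at 8 weeks. At 8 weeks all 11 were at least 2-fold below the 1 week level in SD rats, while 4 were in AN rats. Among all genes with status OK, 3.61% fell that far for SD and 5.77% for AN. Among the 53 genes, 24 did so for SD and 18 for AN. The phases were normalized separately and the genes were selected, so these counts are a description.

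Of the Ly49 genes, 3 belonged to the group. They lie on chromosome 4 of the RN4 genome. Ly49si2 (RGD:1359240, 167553042 to 167574600) had an FPKM of 2.57 in SD rats and 12.7 in AN rats at 1 week, and 0.964 and 8.73 at 8 weeks (FC 4.94 and 9.06). Another row with the same symbol (RGD:1359669, 167325312 to 167346823) had 2.97 and 9.88, then 1.04 and 7.63 (FC 3.33 and 7.34). LOC690097 (RGD:1585116), named as an inhibitory Ly49 receptor, had 2.20 and 5.99, then 1.10 and 3.56. In SD rats these genes were near 1 FPKM at 8 weeks, and in AN rats they stayed above 3.

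The rows called Ly49si2 both carry the names Ly49si2 and Ly49si3, so which RefSeq gene each one is was not settled. The promoter windows of that pair are shown to let the genes behind the names be compared. Most of each window lies before the start of the gene, so the likeness of the windows is no measure of the likeness of the RNAs. RefSeq places them on the minus strand of the GRCr8 build at chr4:165397220-165397519 for Ly49si2 and chr4:165188046-165188345 for Ly49si3, from 250 bases before to 50 bases after the start of the gene, 5′ to 3′. Of 300 bases 297 are the same (99%), and capitals mark the 3 that differ.
Ly49si2: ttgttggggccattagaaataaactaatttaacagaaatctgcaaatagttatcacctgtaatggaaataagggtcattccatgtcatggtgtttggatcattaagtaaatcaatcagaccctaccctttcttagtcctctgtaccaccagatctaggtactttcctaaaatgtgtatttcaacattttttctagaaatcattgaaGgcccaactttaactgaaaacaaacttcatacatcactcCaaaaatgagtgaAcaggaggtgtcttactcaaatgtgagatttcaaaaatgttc
Ly49si3: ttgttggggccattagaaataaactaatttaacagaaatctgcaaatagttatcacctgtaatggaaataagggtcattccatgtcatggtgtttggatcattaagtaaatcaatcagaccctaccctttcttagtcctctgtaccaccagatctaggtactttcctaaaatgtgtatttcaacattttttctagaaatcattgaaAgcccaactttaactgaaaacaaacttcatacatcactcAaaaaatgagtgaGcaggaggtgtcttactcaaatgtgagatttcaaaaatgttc

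The named Ly49 rows did not share one direction. Of 8 named rows with status OK, 4 were at least 2-fold higher in AN rats in both phases, and the rule made 3 of these so. Of the 5 rows outside the group, 1 was at least 2-fold higher in both phases (RGD:1584856), 3 were at least 2-fold lower in both, and Klra5 lay between. Most symbols used here come from a part of the study's gene list that holds genes called different between strains at 1 week, and none of its 1923 genes with status OK had a log2FC smaller in size than 0.53 at 1 week. The families and lists described here are thus mostly those of their rows that differed between strains at 1 week, and rows with like levels are missing from the counts and sums. Of the 1923 genes 3.33% were at least 2-fold higher in AN rats in both phases and 29.5% at least 2-fold lower, without a minimum FPKM. Between the members on chromosome 4 lies RGD:1359487, which carries the symbol LOC690097 too, with 24.9 in SD rats and 0.672 in AN rats at 1 week and 7.62 and 0.426 at 8 weeks. The summed FPKM of the 8 rows was 67.9 in SD rats and 62.5 in AN rats at 1 week, and 38.2 and 50.7 at 8 weeks. The sum over these 8 rows was thus close between strains at 1 week while single rows differed many-fold in both directions, and unnamed rows of the same array are not in it. How alike the RNAs of these rows are was not measured, and since the counting could split reads between similar copies, the value of any single row is uncertain.

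Among the PIR genes, 3 belonged to the group, all on chromosome 1. LOC688112 (RGD:70895, 63651982 to 63659834), named as a leukocyte Ig-like receptor of subfamily B and as a paired Ig-like receptor, had 6.27 FPKM in SD and 25.5 in AN rats at 1 week, and 2.08 and 28.0 at 8 weeks (FC 4.08 and 13.4). LOC690955 (RGD:1589827, 63812259 to 63819599), similar to PIR-B, an inhibitory receptor, had 21.4 and 81.1, then 8.87 and 41.5. RGD1566307 (69340385 to 69348030) had 13.6 and 30.5, then 5.67 and 36.5. LOC688112 and RGD1566307 were thus higher in AN rats at 8 weeks than at 1 week, while all 3 were lower in SD rats. Of 5 named PIR rows with status OK, the rule made these 3 at least 2-fold higher in both phases, LOC499078 was 1.85-fold higher at 1 week (154 and 285 FPKM, then 85.4 and 202), and RGD:1308238 went the other way (4.67 and 0.625, then 3.16 and 0.586). Oscar (RGD:1559897), an Ig-like receptor of osteoclasts and myeloid cells that binds collagen, lies beside them at 63920505 to 63925535. It had 4.92 and 20.0 FPKM at 1 week and 1.12 and 5.80 at 8 weeks (FC 4.07 and 5.17).

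The PILR genes held the largest chronic FC of the 53. All 4 members lie on chromosome 12. LOC681196 (RGD:1561730, 20433499 to 20442764) had 1.44 FPKM in SD and 6.18 in AN rats at 1 week, and 0.0906 and 2.58 at 8 weeks (FC 4.29 and 28.4). RGD1559588 (17981784 to 17984938) had 3.13 and 12.2, then 0.308 and 8.40 (FC 3.88 and 27.2). RGD1566006 (20569662 to 20572770) had 3.77 and 14.0, then 0.124 and 2.14 (FC 3.72 and 17.3). In these 3 genes the chronic SD level was between 0.0906 and 0.308 FPKM, so the size of the chronic FC rests on very low SD values. LOC686387 (RGD:1583278) had 4.21 and 10.9, then 1.06 and 4.49. Of 9 named PILR rows with status OK, 8 were at least 2-fold higher in AN rats in both phases, and the rule made 4 of the 8 so. Of the 5 rows outside the group 4 were, beside 3.33% of the 1923 genes named in the same way. These 4 fell short of 2 FPKM in chronic AN rats. The remaining row, RGD:1562847, was lower in AN rats at 1 week (15.0 and 8.13) and higher at 8 weeks (1.68 and 2.90).

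**Figure D3:**
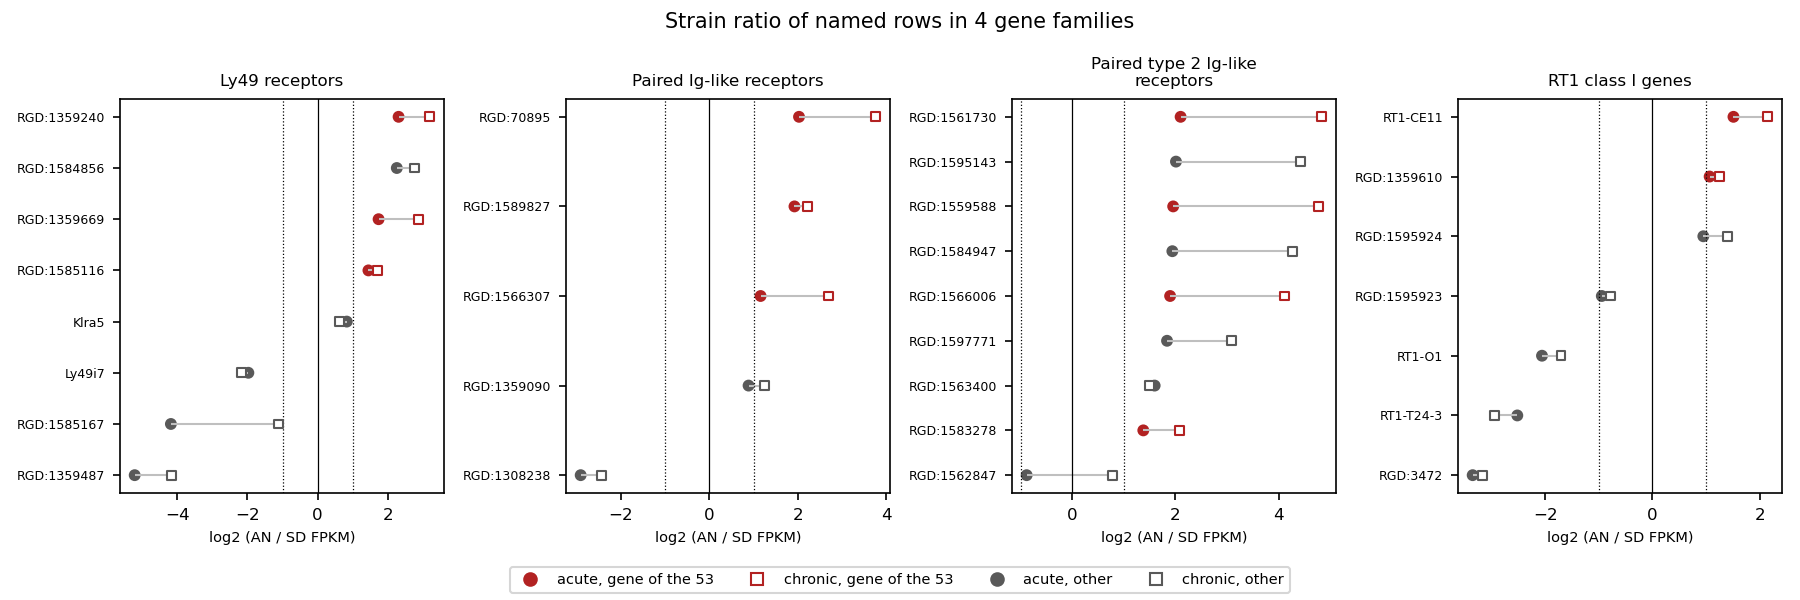
Log2FC of named rows with status OK in 4 gene families, acute (circles) and chronic (squares), with genes of the 53 in red and others in grey, dotted lines at 2-fold and a separate horizontal scale for each family. Ly49, PIR and RT1 class I rows fall on both sides of 0, while 8 of 9 PILR rows, 4 of them selected for it, lie beyond 2-fold on the AN side in both phases. Of the 5 PILR rows not selected 4 lie there, beside 3.33% of the genes named in the same way. RT1-N1 is not drawn because it is listed at 0 in AN rats.

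MHC class I genes display peptides on the cell surface, and 2 of them belonged to the group. RT1-CE11 (RGD:1595786, chromosome 20, 3410093 to 3413041) had 40.2 FPKM in SD and 114 in AN rats at 1 week, and 32.2 and 142 at 8 weeks (FC 2.85 and 4.40). RT1-A2 (RGD:1359610, chromosome 20, 4998644 to 5002204), a name that 4 rows share, had 32.5 and 67.9, then 28.9 and 68.8 (FC 2.09 and 2.38), and it fell below 2-fold at 1 week when FC was divided by the ratio of summed FPKM. Of 8 named RT1 class I rows with status OK, these 2 were at least 2-fold higher in AN rats in both phases, as the rule required. Of the other 6, 4 were at least 2-fold lower in both, beside 29.5% of the 1923 genes. The row with the highest level, RGD:1595923, had 234 in SD rats and 122 in AN rats at 1 week, and 242 and 141 at 8 weeks. RT1-N1 had 4.84 and 4.80 FPKM in SD rats and was listed at 0 in AN rats in both phases. Summed over the 8 rows, FPKM was 386 in SD rats and 382 in AN rats at 1 week, and 375 and 440 at 8 weeks. The sums were thus close at 1 week and the single rows differed in both directions. RT1 alleles differ between strains and the family holds similar copies, so the value of any single row is uncertain.

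Both Fc receptor genes of the group were among its most abundant. Fcgrt (RGD:61811, chromosome 1, 95566716 to 95575645) encodes the heavy chain of the neonatal Fc receptor, a class I-like protein that recycles IgG and albumin. Its FPKM was 196 in SD rats and 565 in AN rats at 1 week, and 152 and 397 at 8 weeks (FC 2.88 and 2.62). Fcrls (RGD:1306885, chromosome 2, 179283608 to 179294282), an Fc receptor-like scavenger receptor of microglia and macrophages, had 340 and 895, then 176 and 468 (FC 2.64 and 2.66). The FC of both genes was close at both times. Of 7 named Fc receptor rows with status OK, the rule made these 2 at least 2-fold higher in both phases. Of the other 5, Fcgr1a was so at 1 week (57.2 and 115, then 30.6 and 30.6) and none was at 8 weeks. The shares of the 1923 genes were 7.64% and 4.94%. Fcer1g, the shared signalling chain, had 1144 and 1791, then 853 and 854. Over the 5 Fc receptor rows outside the group the chronic FC lay between 0.972 and 1.36.

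A further 4 genes encode proteins of phagocytes and platelets, with a median FC of 3.26 at 1 week and 4.94 at 8 weeks. Cd5l (RGD:1308526, chromosome 2, 179383718 to 179394732) encodes a protein that tissue macrophages secrete and that acts on lipid metabolism and apoptosis. It had 1.17 FPKM in SD and 6.38 in AN rats at 1 week, and 3.24 and 17.2 at 8 weeks (FC 5.44 and 5.30). It was one of 2 genes at least 2-fold higher at 8 than at 1 week in each strain. Atp6v0d2 (RGD:1306900, chromosome 5, 34476044 to 34524995), a subunit of the vacuolar proton pump found in macrophages and osteoclasts, had 6.19 and 22.7, then 3.69 and 38.9 (FC 3.67 and 10.5). From 1 to 8 weeks its level was lower in SD rats and higher in AN rats. The one other V-ATPase row with status OK that could be named, Atp6v1c1, had an FC of 1.45 at 1 week (115 and 168 FPKM, then 96.6 and 115).

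Fabp4 (RGD:69309), a fatty acid carrier of adipocytes and macrophages, had 81.0 and 189 FPKM at 1 week and 27.9 and 86.0 at 8 weeks. Pf4 (RGD:3305, chromosome 14, 18812549 to 18813259), a chemokine stored in platelets and also made by some macrophages, had 292 and 832, then 124 and 569 (FC 2.85 and 4.58). Treml1, another platelet gene, went the other way, with 3.48 and 0.419, then 4.14 and 0.227. The 2 named platelet rows with status OK thus went in opposite directions. Of 5 lipid-handling phagocyte genes that could be named, Fabp4 and Cd5l were selected. Of the other 3, Lpl, a lipase, was 2-fold higher at 1 week and none was at 8 weeks, beside 7.64% and 4.94% of the 1923 genes (24.9 and 52.0, then 10.4 and 18.0). Apoc1, an apolipoprotein, had 183 and 359, then 54.2 and 22.4. Of 4 named genes of osteoclasts and multinucleated macrophages, Oscar and Atp6v0d2 were selected. Car2, a carbonic anhydrase, was lower in both phases (33.7 and 15.7, then 69.3 and 22.2), and Tnfrsf11a, the receptor RANK, had 13.1 and 8.88, then 12.0 and 12.6.

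None of the 6 general macrophage and microglia markers that could be named was 2-fold higher in both phases. Itgam (63.2 and 137 FPKM) and Cd14 (48.1 and 108) were 2-fold higher in AN rats at 1 week, beside 7.64% of the 1923 genes. At 8 weeks they had 43.7 and 58.3, and 36.7 and 36.0. Mrc1, the mannose receptor of a macrophage subset, had 42.5 and 82.3, then 17.5 and 41.5. Summed over the 6 markers, which also include Ptprc, Cx3cr1 and Tmem119, FPKM was 317 in SD rats and 561 in AN rats at 1 week (FC 1.77), and 224 and 257 at 8 weeks (FC 1.14). The FC of the sum was smaller at 8 weeks, while that of Mrc1 was 1.94 at 1 week and 2.37 at 8 weeks. Of the 6 markers, 5 were named from genes called different at 1 week, so a larger FC of the sum at that time follows from the naming. The study reported no strain difference in Cd68 RNA in either phase. Nor did the stained area of CD68, CD16 or CD163 differ at 1 week. The part of macrophage number in the 53 genes was not tested.

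Matrix and growth factor genes made up 7 of the group, with a median FC of 2.57 at 1 week and 2.54 at 8 weeks. Postn (RGD:1305285, chromosome 2, 143537098 to 143568341) encodes periostin, a matrix protein of fibroblasts in wounds. It had 113 FPKM in SD and 392 in AN rats at 1 week, and 7.53 and 17.2 at 8 weeks (FC 3.48 and 2.28). Adam8 (RGD:1566394), a membrane protease of leukocytes, had 22.7 and 79.3, then 2.61 and 7.24 (FC 3.50 and 2.77). Both genes were far lower at 8 weeks in either strain, by 15.0-fold and 22.8-fold for Postn and by 8.69-fold and 11.0-fold for Adam8 in SD and AN rats, and the strain difference was present at both levels.

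The others were Ltbp2, a fibrillin-binding matrix protein (23.6 and 59.8 FPKM, then 7.37 and 20.2), and Sfrp4, a secreted Wnt antagonist (35.6 and 92.3, then 17.4 and 37.4). Igfbp4, which binds insulin-like growth factors, had 56.1 and 115, then 17.9 and 55.8, and Ccbe1, a matrix protein needed for lymphatic vessel growth, had 6.49 and 13.4, then 1.58 and 4.00. Vegfb, a growth factor of the vascular endothelial family, had 16.0 and 41.1, then 18.5 and 39.1. Ccbe1 lost the call with 1 added to each FPKM, and Ccbe1 and Igfbp4 lost it when FC was divided by the ratio of summed FPKM. Of the 7, all but Vegfb were at least 2-fold lower at 8 weeks in each strain, beside 3.61% of all genes with status OK in SD rats and 5.77% in AN rats. This too is a description, since the phases were normalized separately. Vegfb shares its row with the neighbouring gene Dnajc4 in the names given, so its value may hold reads of both.

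Of 28 scar matrix genes listed, 12 could be named, and these 12 include the 6 matrix genes above. The rule made these 6 higher in both phases. Of the other 6, 2 were at least 2-fold higher in AN rats at 1 week and 1 at 8 weeks, beside 7.64% and 4.94% of the 1923 genes named in the same way. None was 2-fold lower in either phase (59.1% and 30.3% of the 1923 genes). Lox, which crosslinks collagen, had 45.1 and 117 FPKM at 1 week and 18.7 and 13.4 at 8 weeks. Col8a1, a short-chain collagen, had 66.7 and 135, then 27.8 and 23.9. Tgfbi, a matrix protein induced by transforming growth factor beta, had 88.2 and 155, then 51.2 and 103. Lox and Col8a1 showed no AN excess at 8 weeks. Of 2 named fibroblast markers, Postn was higher and Thy1, which neurons also express, was lower in AN rats in both phases (140 and 50.3, then 135 and 38.1).

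**Figure D4:**
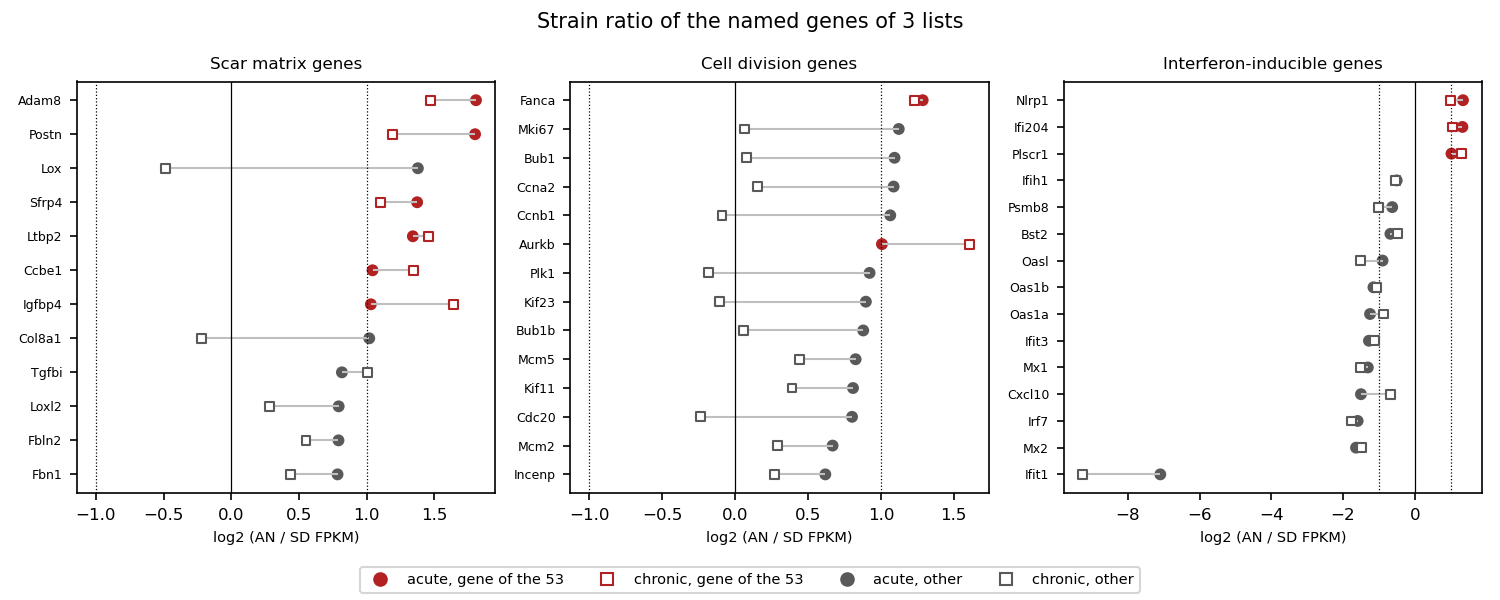
Log2FC of the named genes of 3 lists, acute (circles) and chronic (squares), with genes of the 53 in red and others in grey, and dotted lines at 2-fold. Horizontal scales differ between panels. The genes in red were selected to lie beyond 2-fold on the AN side in both phases. The grey squares of the cell division panel lie between -0.24 and 0.44, and the grey points of the interferon panel lie below 0.

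The promoter windows of Postn and Igfbp4 are shown as those of matrix genes of the group that hold the letters TATAAA, printed in capitals. They lie on the plus strand of GRCr8 at chr2:140677811-140678110 and chr10:84491221-84491520, 5′ to 3′. The letters stand 44 to 39 bases before the start in Postn and 40 to 35 bases before it in Igfbp4.
Postn: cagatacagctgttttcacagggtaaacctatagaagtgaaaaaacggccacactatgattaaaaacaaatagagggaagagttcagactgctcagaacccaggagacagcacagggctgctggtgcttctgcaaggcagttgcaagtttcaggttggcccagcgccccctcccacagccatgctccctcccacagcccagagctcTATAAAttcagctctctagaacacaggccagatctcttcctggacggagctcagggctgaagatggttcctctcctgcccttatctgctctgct
Igfbp4: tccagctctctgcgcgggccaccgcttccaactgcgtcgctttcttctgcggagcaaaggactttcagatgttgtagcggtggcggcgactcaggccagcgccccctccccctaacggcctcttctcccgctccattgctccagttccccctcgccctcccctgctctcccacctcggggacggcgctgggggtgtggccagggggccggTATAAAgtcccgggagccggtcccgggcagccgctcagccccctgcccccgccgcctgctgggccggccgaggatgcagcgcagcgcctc

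Of the 33469 promoter windows in the RefSeq table, 23 carry a symbol found among the 53 genes. These windows were searched on both strands for letter strings of which none contains another. The letters TATAAA were in 4 of 23 windows (Pdilt, Postn, Igfbp4 and RT1-A2) and in 14.2% of all windows. GAAANNGAA, the core of interferon-responsive elements, was in 1 of 23 (Fcgrt) and in 9.71% of all, and GAGGAAGT, a motif of the myeloid factor PU.1, was in 0 of 23 and in 2.42% of all. Of the E-box letters TCACGTGA and TCATGTGA, bound by factors of lysosomal genes, the first was in 0 of 23 (0.777% of all) and the second in 1 of 23, Vegfb (1.16%). A window named RT1-A2 may belong to any of the 4 rows of that name. These are matches of letters in a window of 300 bases and say nothing of which factors act there.

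The sensing and signalling genes were 5. Nlrp1 (RGD:1310963, chromosome 10, 57963707 to 58007925), an inflammasome sensor, had 4.50 FPKM in SD and 11.4 in AN rats at 1 week, and 2.91 and 5.84 at 8 weeks. Ifi204 (RGD:1306089), a DNA sensor of the interferon-inducible p200 family, had 7.86 and 19.8, then 4.84 and 10.1. Plscr1 (RGD:620521), an interferon-inducible phospholipid scramblase, had 10.7 and 21.8, then 6.50 and 16.0. Of 35 interferon-inducible genes listed, 15 could be named. The rule made these 3 higher in both phases, and of the other 12, 6 were 2-fold lower in both, beside 29.5% of the 1923 genes named by the study's list. At 1 week 8 of the other 12 were 2-fold lower and at 8 weeks 7, beside 59.1% and 30.3% of the 1923 genes. The median log2FC of the 15, the 3 selected genes among them, was -1.15 at 1 week and -1.0 at 8 weeks. Over the 1923 genes it was -1.20 and -0.47. The 3 genes were selected to be higher, so these medians are not read against each other. With 1 added to each FPKM none of Nlrp1, Ifi204 and Plscr1 reached 2-fold in both phases.

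Ifit1, an antiviral RNA-binding protein, had 20.8 FPKM in SD and 0.152 in AN rats at 1 week, and 19.9 and 0.0325 at 8 weeks. Irf7, the regulator of interferon production, had 57.5 and 19.1, then 62.2 and 18.3, and Mx2 had 57.5 and 18.5, then 63.4 and 22.8. Nlrp1, Ifi204 and Plscr1 were thus higher in the same libraries in which the other named interferon-inducible genes were lower. Il20rb (RGD:1566151), a chain of the receptors for the interleukin 20 family, had 16.7 and 67.4, then 11.7 and 30.1 (FC 4.04 and 2.58). Mapk13, the p38 delta kinase, which also lost the call with 1 added, had an FC of 2.80 and 2.45, from 5.56 and 15.6 FPKM at 1 week and 1.96 and 4.81 at 8 weeks.

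Redox and secretory genes numbered 9. Gpx3 (RGD:69224, chromosome 10, 40311093 to 40319382) encodes the secreted glutathione peroxidase, which reduces peroxides outside the cell. It was the most abundant of the 53 genes at 8 weeks, with 202 FPKM in SD and 521 in AN rats at 1 week and 312 and 785 at 8 weeks (FC 2.58 and 2.51). Akr1b8 (RGD:708475), an aldo-keto reductase, had 13.0 and 34.7, then 13.0 and 39.1 (FC 2.66 and 2.99). In SD rats its level was the same to 3 digits at both times. Of the same family, Akr1b10 had 14.8 and 8.33 FPKM at 1 week and Akr1b7 had 4.12 and 1.51, while the nearest gene to the left of Akr1b8 had an FC of 1.08 and 1.06. Hmox1, which degrades heme, had 293 and 907 at 1 week and 126 and 129 at 8 weeks. Of 6 redox genes that could be named, Gpx3 and Akr1b8 were selected, and of the other 4, Hmox1 was 2-fold higher at 1 week and none was at 8 weeks, beside 7.64% and 4.94% of the 1923 genes.

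Disulfide isomerases form the bonds that fold secreted proteins. Pdia5 (RGD:1359236) had 4.83 FPKM in SD and 16.2 in AN rats at 1 week, and 2.43 and 5.66 at 8 weeks. Pdilt (RGD:1307822, chromosome 1, 177750347 to 177782699), a member known from the testis, had 0.701 and 2.36, then 3.10 and 19.6 (FC 3.37 and 6.32). It was the other gene at least 2-fold higher at 8 weeks in each strain, by 4.43-fold in SD and 8.31-fold in AN rats. The widely expressed Pdia4 had 111 and 166, then 100.1 and 120.2. Galnt12, which starts O-linked sugar chains on secreted proteins, had 1.26 and 7.76, then 1.14 and 3.61 (FC 6.14 and 3.16). Rnase10, a member of the ribonuclease A family without activity, had the largest acute FC of the group, 6.26, from 1.40 and 8.78, then 0.853 and 2.14.

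Sec16b, an organizer of vesicle exit from the endoplasmic reticulum, had 2.57 and 5.73, then 1.82 and 4.75. Cst6, a secreted inhibitor of cysteine proteases, had 10.9 and 27.3, then 12.3 and 33.8. Fxyd2, a regulatory subunit of the sodium pump, had 54.4 and 136, then 48.3 and 128. For Gpx3, Akr1b8, Cst6 and Fxyd2 the FC lay between 2.49 and 2.99 in both phases, so the strain ratio of these genes was nearly the same at both times. The acute FC was 2.49 times the chronic FC for Rnase10 and 1.94 times for Galnt12. With 1 added to each FPKM, Pdia5, Pdilt, Rnase10 and Sec16b did not reach 2-fold in both phases.

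Aurkb (RGD:621625), a kinase of chromosome segregation, had 13.8 FPKM in SD and 27.8 in AN rats at 1 week, and 4.65 and 14.2 at 8 weeks (FC 2.01 and 3.05). Fanca, a component of the complex that repairs crosslinked DNA, had 4.54 and 11.1, then 2.46 and 5.78. Of 27 cell division genes listed, 14 could be named. Besides Aurkb and Fanca, which the rule made so, 4 of the other 12 were at least 2-fold higher in AN rats at 1 week and 0 at 8 weeks, beside 7.64% and 4.94% of the 1923 genes named in the same way. With 1 added to each FPKM neither Aurkb nor Fanca reached 2-fold in both phases. Mki67, the proliferation antigen, had 12.2 and 26.6, then 2.65 and 2.77, and Ccnb1, a mitotic cyclin, had 18.5 and 38.7, then 3.98 and 3.74. At 8 weeks the log2FC of the 12 other genes lay between -0.24 for Cdc20 and 0.44 for Mcm5. Eif5b, named together with a pseudogene of this initiation factor, had 0.991 and 3.49, then 1.67 and 3.34, and it too lost the call with 1 added.

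The other 10 genes are known here by an identifier or as hypothetical proteins, so no role is given. LOC691993 (RGD:1593299) had the largest acute FC of these, 3.17, with 9.28 and 29.4 FPKM, then 6.82 and 20.9. RGD:1303112 had 5.39 and 10.9, then 2.60 and 17.9, and its chronic FC of 6.89 is the largest of the 10. A row that joins several identifiers on chromosome 9 had 70.5 and 183, then 36.1 and 78.6. RGD:2321700 had 36.9 and 96.8, then 42.0 and 123. The FC of the 10 ran from 2.01 to 3.17 at 1 week and from 2.18 to 6.89 at 8 weeks. RGD:1303064 and RGD:1303112 lie in a single merged locus on chromosome 20 that 30 rows share, and in all 6 of the 53 genes share a locus with other rows, so that the assembly joined neighbouring genes there.

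The tables of the phases were normalized separately, so levels at 1 and 8 weeks are set side by side as a description. From 1 to 8 weeks 44 of the 53 genes were lower in SD rats and 39 in AN rats. At least 2-fold lower were 24 in SD rats (45.3%, beside 3.61% of all genes with status OK) and 18 in AN rats (34.0%, beside 5.77%). The median log2 change was -0.95 in SD rats and -0.55 in AN rats, beside 0.01 and 0.05 over all genes. In 45 of the 53 genes the AN level at 8 weeks was still above the SD level at 1 week. Those with a chronic AN level at or below it were 8, among them Postn and Adam8. The selection used the values of both tables, so nothing is read from these shares.

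**Figure D5:**
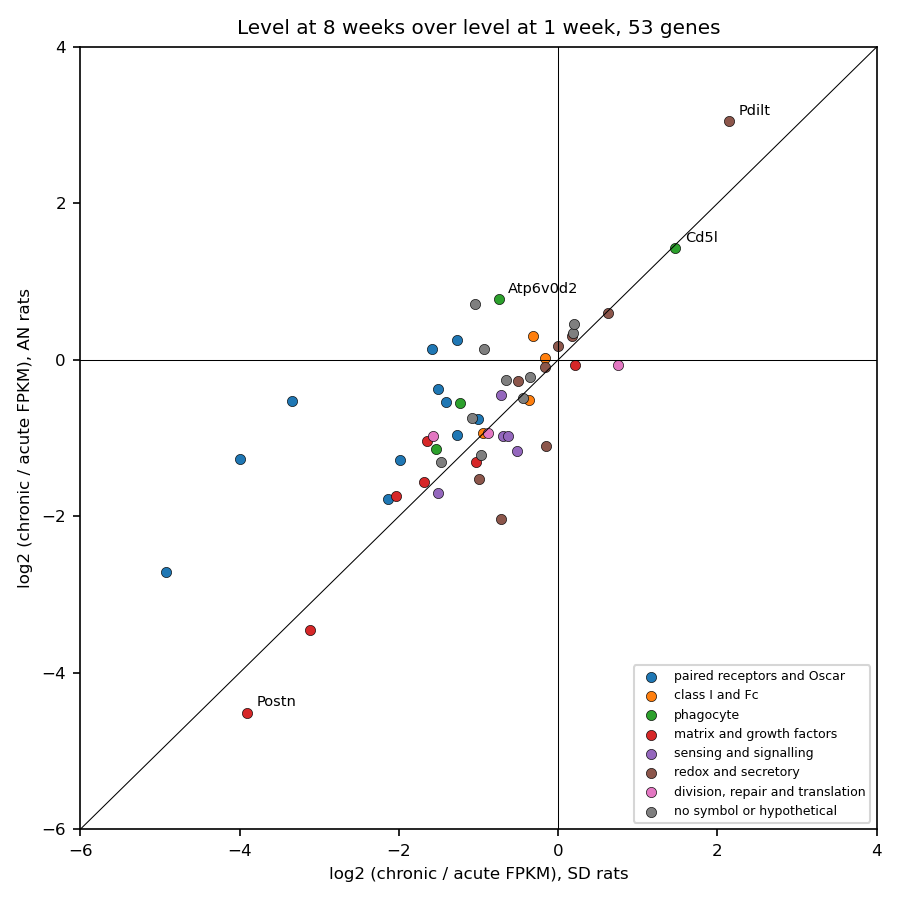
Log2 ratio of the 8 week over the 1 week FPKM in SD rats (horizontal axis) and AN rats (vertical axis) for the 53 genes, colored by role, with a line of equal change. Most points lie below 0 on both axes, and the paired receptors and Oscar (blue) lie above the line, so that their ratio of 8 over 1 week was higher in AN than in SD rats. Pdilt and Cd5l are at least 2-fold higher at 8 weeks in each strain, and Atp6v0d2 is lower in SD and higher in AN rats.

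The 53 genes lie on 17 chromosomes. Of them 16 (30.2%) lie within 1 Mb of another, in 6 clusters, whereas 9.09% of all genes with status OK lie within 1 Mb of one of the 53. Genes higher in AN rats in a single list were placed alike, with 39.8% of the acute and 40.4% of the chronic list within 1 Mb of another of their list, and for genes higher in SD rats in both phases it was 56.3%. These lists differ in size, which alone changes such a share. The clusters hold LOC688112, LOC690955 and Oscar (chromosome 1, 63651982 to 63925535), the Ly49 genes (chromosome 4, 167325312 to 167611778), the PILR genes LOC686387, LOC681196 and RGD1566006 (chromosome 12, 19884889 to 20572770), RT1-CE11 and its neighbours (chromosome 20, 3410093 to 3842500), LOC691993 and Nlrp1 (chromosome 10, 57687663 to 58007925), and Fcrls and Cd5l (chromosome 2, 179283608 to 179394732).

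The chromosome 1 cluster held 11 rows with status OK besides its 3 members. Of these 11, 6 had an FC above 1 in both phases, with RGD:1307219 the highest (1.40 and 3.11), and 4 had an FC below 1 in both, among them RGD:1308238. In the Ly49 cluster 3 other rows lay between the members. RGD:1561306 had 25.9 FPKM in SD and 30.8 in AN rats at 1 week and 9.71 and 21.4 at 8 weeks. RGD:1359487, given above, and RGD:1563110 were far lower in AN rats, the latter with 10.1 and 0.0760, then 2.90 and 0.0248. In the PILR cluster 6 of 7 rows were 2-fold higher in AN rats in both phases, 3 of them the members that define it. Of its 4 other rows 3 were so, beside 0.744% of all genes with status OK counted without a minimum FPKM. Over the 97 nearest genes with status OK on either side of the 53, the median log2FC was -0.01 at 1 week and 0.02 at 8 weeks, with 5 at least 2-fold higher and 9 at least 2-fold lower in AN rats in both phases, beside 0.744% and 5.78% of all genes.

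Values of the named markers of other cell types are given for the same libraries. Most of these markers were named from the part of the study's list that holds genes called different at 1 week. A strain difference at 1 week is thus not read as a result about a cell type. The study itself reported PLP and GFAP, its oligodendrocyte and astrocyte markers, as not different between strains. Among the 1923 genes named in the same way as these markers, 59.1% were 2-fold lower in AN rats at 1 week and 30.3% at 8 weeks, and the marker counts stand against those shares. Neuron markers summed to 1525 FPKM in SD and 279 in AN rats at 1 week and 1372 and 458 at 8 weeks, with 10 of 10 named markers 2-fold lower in AN rats at 1 week and 9 at 8 weeks. Of 7 oligodendrocyte markers 4 were 2-fold lower at 1 week and 0 at 8 weeks (sums of 2037 and 949, then 1946 and 1684), of 6 Schwann cell markers 4 and 0 (1764 and 632, then 1610 and 1875), and both astrocyte markers were so at 1 week alone (2233 and 654, then 4552 and 3235). The 5 muscle rows with status OK summed to 32.1 and 3.94, then 23.6 and 6.67, and the 3 red cell rows to 743 and 248, then 269 and 1039. Markers of neurons and glia were thus detected in all 4 groups. Of the T cell markers, Cd3g and Cd4 could be named, and both were 2-fold lower in AN rats at 1 week and neither at 8 weeks. Of the B cell markers the named Cd22 was 2-fold lower in both phases (10.4 and 3.52, then 6.25 and 1.59), and the neutrophil marker Csf3r had 20.3 and 30.8, then 14.3 and 12.9. No marker on the lists for natural killer cells, mast cells or endothelium could be named. The part of these cell types in the 53 genes was not tested.

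The thresholds cut through a continuous range. Just inside were Eif5b (smaller FC 2.00), Nlrp1 (2.01) and RGD:1586688 (2.01). Just outside were RGD1308470 (RGD:2201), with an FC of 2.29 at 1 week and 1.99 at 8 weeks, Trpc6, a cation channel (3.68 and 1.99), and Mreg, which encodes melanoregulin (1.98 and 2.53).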

How the data were processed

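RNA sequencing of polyadenylated RNA was available for 12 rats in 4 groups of 3. Per the study's methods and the processing notes, reads were checked with FastQC, trimmed of adapters with cutadapt, mapped to the RN4 rat genome with TopHat 1.5.0 and assembled with Cufflinks 0.0.6 under quartile normalization. Transcripts were merged for each time point, and the strains were compared with Cuffdiff, whose version is not given in the sources used here. The authors deposited 2 tables, 1 for each phase, with an FPKM for each group of 3 rats. The fold changes, test statistics, p-values and q-values of the authors' comparison in these tables were not used.

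Tables were joined by gene, FC was computed from the FPKM as deposited with no pseudocount, and no test was run because no value per rat was analysed here. The members, gene lists and roles were chosen with earlier results of these data known. Symbols came from identifiers paired with names in the study's supplement (1950) or in the RefSeq gene table of GRCr8 (2725), which named 4675 of 17423 identifiers. Among genes with status OK, those named by the supplement (1923) were 2-fold apart between strains at 1 week in 66.8% of cases and the others (9764) in 4.13%, and none of the former had a log2FC smaller in size than 0.53, because the part of the supplement used here holds genes that the authors' comparison called different at 1 week. Where a count over named genes leaves out the members, or sets them apart, it is read against shares of these 1923 genes. Coordinates are those of the RN4 loci in the tables, and promoter windows are those of RefSeq for GRCr8. The genes named were members on a gene list, the 10 with the largest smaller FC and the 10 with the highest AN FPKM in each phase. Other members were named so that each is accounted for, and other list genes were chosen after their values were seen. Calculations used Python 3.11.15 with pandas 2.3.3 and numpy 2.4.6, and the selection was tested on simulated data.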

Additional observations from a re-analysis of the deposited data

How the results depend on the processing

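With the minimum FC set to 1.5 the group held 198 genes, and with 3 it held 13. Adding 1 to each FPKM left 35 of the 53 genes, and the median log2FC over all 53 was then 1.34 in both phases. A minimum AN FPKM of 1 or 5 gave 65 or 39 genes. Lost at 5 were Eif5b, Ccbe1, Galnt12, Pdilt, Rnase10, Sec16b, Mapk13, LOC690097 and the PILR genes LOC681196, LOC686387 and RGD1566006. Genes without a known role were lost too. Dividing each FC by the median FC left 52 genes, all but Eif5b, and the median over the 53 was 1.41 at 1 week. Dividing by the ratio of summed FPKM, which shifts log2FC by 0.12 at 1 week and 0.05 at 8 weeks, left 42 genes, and the medians over the 53 were 1.27 and 1.42. The named genes lost were RT1-A2, Aurkb, Eif5b, Igfbp4, Ccbe1, Nlrp1 and Plscr1 under that scaling, and Aurkb, Fanca, Eif5b, Ccbe1, Pdia5, Pdilt, Rnase10, Sec16b, Ifi204, Mapk13, Nlrp1 and Plscr1 with 1 added, beside genes without a known role in each case. Dropping the status filter gave 55 genes. The number of members near another was 7 within 0.1 Mb and 25 within 5 Mb, in place of 16 within 1 Mb. Leaving out single rats could not be tried, and no paired analysis was possible because the tables hold 1 FPKM for each group of 3 rats. The tables hold no read counts, and how far counting error limits the low SD values, such as those of the PILR genes at 8 weeks, was not assessed.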

Other observations

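The nearest gene to Pdilt with status OK on its left side was Umod, which encodes uromodulin, a protein of the kidney tubule. Its FC was 12.6 at 1 week and 6.07 at 8 weeks, beside 3.37 and 6.32 for Pdilt. Umod was named after its values were seen, and it did not reach an AN FPKM of 2 in both phases.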
